A study of Mus musculus with 20 samples.

Results

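ATP-sensitive potassium (KATP) channels are built from a pore-forming inward rectifier and a sulfonylurea receptor, and 4 genes encode their subunits: Abcc9 (SUR2), Abcc8 (SUR1), Kcnj11 (Kir6.2) and Kcnj8 (Kir6.1). All 4 were found by gene symbol among the 19872 genes listed at 2 weeks and the 19985 listed at 24 weeks, and all 4 passed the filter on low values at both times. The set was selected on the normalized counts of Abcc9, which were lower in dnOGAh-Tg at both times, so the values of Abcc9 are given as a description with no test. The other 3 genes were taken as partners of Abcc9 and are read against the test across all genes.

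The pore of the channel closes when ATP binds to it, and the receptor subunit senses magnesium-bound nucleotides and reopens it, so that the channel couples the energy state of a cell to its membrane potential. In the mouse, ventricular muscle cells use mainly Kir6.2 with the SUR2A splice form of Abcc9, atrial muscle cells use Kir6.2 with SUR1, and vascular smooth muscle and pericytes use Kir6.1 with the SUR2B splice form. Reads summed per gene do not separate SUR2A from SUR2B.

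Left ventricle of mice was profiled by bulk RNA sequencing in 4 groups of 5 libraries, 20 in all: Control and dnOGAh-Tg after 2 weeks, and Control and dnOGAh-Tg after 24 weeks. dnOGAh-Tg mice overexpress, in the heart, a dominant negative form of the O-GlcNAc-removing enzyme OGA, induced with doxycycline in food, and the series asks what a lasting rise of protein O-GlcNAc does to the heart. The labels used here do not give the promoter behind the transgene, the genotype of Control, or strain, sex and age. They do not say outright that each library is a separate animal, though each title carries a full code of its own. A p-value here therefore reflects variation among libraries that may be technical. Recovered reads per library ranged from 22804712 to 50996272.

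Oga was above every Control library of its time in all dnOGAh-Tg libraries, at 21661 to 56078 normalized counts against 2521 to 3721 at 24 weeks. At 2 weeks the dnOGAh-Tg libraries fell apart: the 2 with the title code F11 (numbers 1 and 2) had 8608 and 6406, and the other 3 (code F13 or F14) had 42127 to 61206, against 2565 to 4269 in Control. Ventricular muscle markers were abundant in every library, the summed level of 10 genes lying between 1433070 and 2558030. The atrial light chain genes Myl4 and Myl7 stood far above the other libraries in 2: dnOGAh-Tg 4 at 24 weeks (4528 and 912, where the other 9 did not pass 142 and 13.5) and Control 2 at 2 weeks (5052 and 2652, where the other 9 did not pass 258 and 7.25). Without dnOGAh-Tg 4 the changes at 24 weeks were -2.00 for Abcc9 (SE 0.18), -0.60 for Abcc8 (limma adjusted p = 0.00027), -0.42 for Kcnj11 (0.0287) and -0.20 for Kcnj8 (0.390), against -2.02, -0.68, -0.51 and -0.28 with it. Without Control 2 those at 2 weeks were -1.16 for Abcc9 (SE 0.33), -0.85 for Abcc8 (adjusted p = 0.160), -0.25 for Kcnj11 (0.215) and 0.088 for Kcnj8 (0.691), against -1.03, -0.84, -0.26 and 0.01. A further property also set libraries apart. The median log2 deviation of the longest 20% of genes (7410 bases of exon or more at 2 weeks) minus that of the shortest 20% (2241 bases or fewer) was -0.50 to 0.33 in Control at 2 weeks, where dnOGAh-Tg had -0.84 to 0.20. At 24 weeks it was -0.29 to 0.36 in Control, with -0.60 to 0.26 in dnOGAh-Tg. Abcc9 (8373 bases of exon) and Abcc8 (8090 bases) are among the longest 20%, while Kcnj11 (3677 bases) and Kcnj8 (2548 bases) are not.

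The genes lie as 2 receptor-pore pairs. On GRCm39, Kcnj8 (ENSMUSG00000030247, chr6:142510563-142517340) and Abcc9 (ENSMUSG00000030249, chr6:142533588-142648041) are 16247 bases apart. Kcnj11 (ENSMUSG00000096146, chr7:45743377-45750188) and Abcc8 (ENSMUSG00000040136, chr7:45753947-45829457) are 3758 bases apart. All 4 are on the minus strand. The promoters of Abcc9 and Kcnj8 are printed because these neighbours had different values in the same libraries. They come from RefSeq on the older build GRCm38.p6, where Abcc9 has chr6:142702245-142702524 and Kcnj8 has chr6:142571585-142571864, both read 5′ to 3′ on the minus strand from 250 bases before the start to 30 bases after it. Capitals mark a match to the MEF2 motif CTAAAAATA.
Abcc9: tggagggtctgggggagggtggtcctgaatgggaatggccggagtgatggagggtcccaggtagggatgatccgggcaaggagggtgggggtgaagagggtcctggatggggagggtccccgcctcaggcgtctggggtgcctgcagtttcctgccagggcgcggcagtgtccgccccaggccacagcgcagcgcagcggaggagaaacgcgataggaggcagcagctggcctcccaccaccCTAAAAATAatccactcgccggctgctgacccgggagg
Kcnj8: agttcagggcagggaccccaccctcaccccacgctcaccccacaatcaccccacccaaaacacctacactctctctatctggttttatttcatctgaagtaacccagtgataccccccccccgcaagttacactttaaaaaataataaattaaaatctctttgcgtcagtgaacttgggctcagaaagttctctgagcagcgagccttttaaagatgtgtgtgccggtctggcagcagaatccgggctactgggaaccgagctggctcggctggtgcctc

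The 2 windows differed in base composition. The Abcc9 window had 67.1% G and C with 15 CpG, and the Kcnj8 window 51.4% with 8 CpG, beside a median of 52.5% over 32817 promoter windows. The capitals in Abcc9 begin at position -8 from the start. Searched on both strands over 300 bases, CTAAAAATA was found in 0.518% of all windows, and it was chosen after the sequence had been seen. None of 4 other motifs was in either window: GTAAACA (forkhead, 3.65% of windows), TCAAGGTCA (ERR, 0.424%), CACGTG (E-box, 7.15%) and ACGTG (hypoxia-response core, 19.6%), the last being contained in the E-box. A match is a run of letters and not a shown binding site.

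Compared per length, Abcc9 and Kcnj11 stood above Kcnj8 and Abcc8 in Control. Per kilobase of exon, the Control level at 24 weeks was 1575 ± 174 (SD, n = 5) for Abcc9 and 1295 ± 163 for Kcnj11, and 468 ± 63.0 for Kcnj8 and 175 ± 6.37 for Abcc8. The order at 2 weeks was the same, at 1445 ± 388, 1231 ± 66.7, 467 ± 86.1 and 211 ± 15.8. Abcc9 and Kcnj11 differed by less than the sum of their SDs at both times, and their order rests on the length used: per kilobase of coding sequence Kcnj11 led, at 4071 ± 512 against 2843 ± 314 at 24 weeks.

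In dnOGAh-Tg at 24 weeks Kcnj11 led on either length. Per kilobase of exon it was at 917 ± 176, followed by Abcc9 at 397 ± 107 and Kcnj8 at 391 ± 94.7, which did not differ beyond their spread, and Abcc8 at 109 ± 12.7. Per kilobase of coding sequence Abcc9 (717 ± 192) and Kcnj8 (783 ± 190) changed places, again within their spread.

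Abcc9 encodes the receptor of the ventricular and vascular channels. At 24 weeks its normalized counts were 15164, 11205, 13720, 12586 and 13248 in Control 1 to 5 and 2355, 2675, 4240, 3063 and 4283 in dnOGAh-Tg 1 to 5. The groups did not overlap, which held for 8.19% of all tested genes in that direction. The highest dnOGAh-Tg library was far below the lowest Control. The mean went from 13184 ± 1457 to 3323 ± 892 (SD, n = 5), 25.2% of Control, a log2 change of -2.02 (SE 0.16).

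At 2 weeks Abcc9 was at 13883, 8281, 15441, 13922 and 8955 in Control and at 12227, 7667, 3562, 4142 and 4437 in dnOGAh-Tg. The groups overlapped: dnOGAh-Tg 1, an F11 library with low Oga, lay inside the Control range, and 4 of 5 lay below all Controls, dnOGAh-Tg 2 by little. The mean went from 12096 ± 3246 to 6407 ± 3625 (log2 change -1.03, SE 0.31). Within the F11 libraries the difference was -0.15 (2 against 2) and within the F14 libraries -1.54 (3 Control against 2 dnOGAh-Tg). Without the F11 dnOGAh-Tg libraries it was -1.54 (SE 0.20). That alternative was listed with the low Oga of those libraries known.

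**Figure D1:**
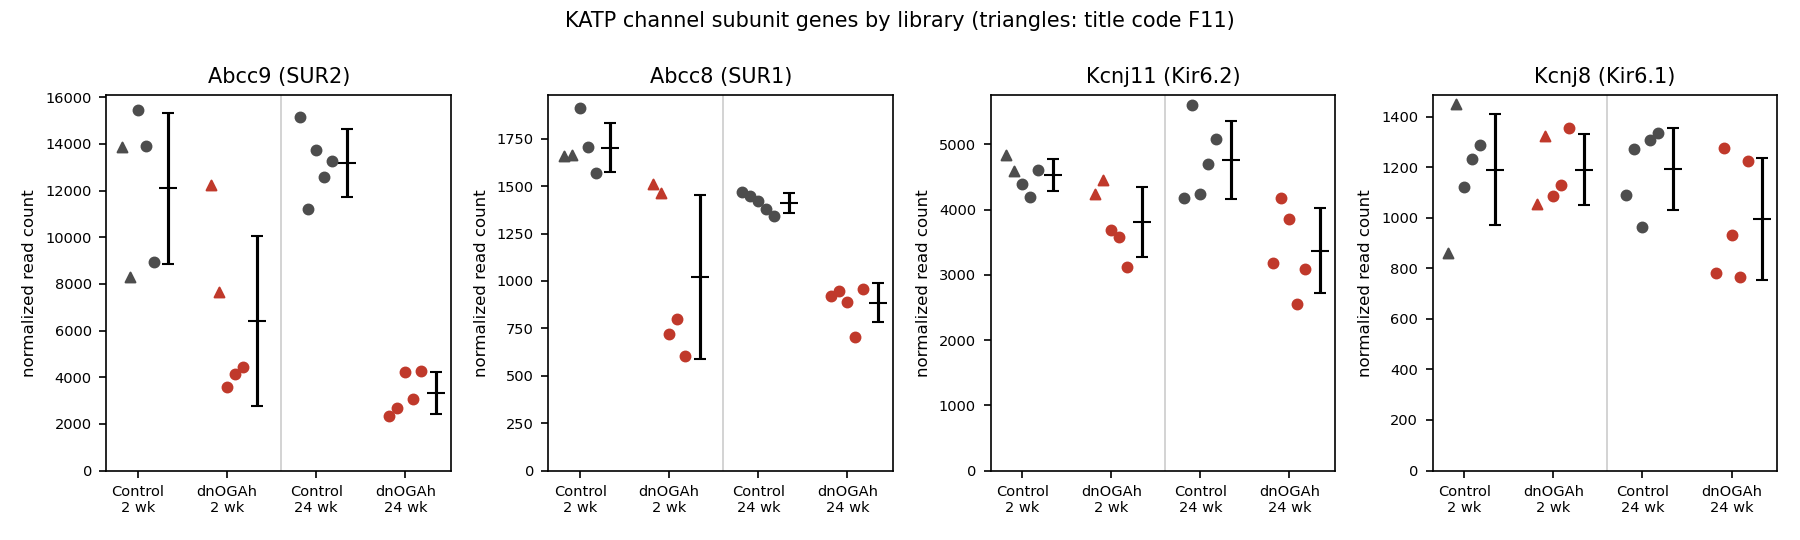
Normalized read counts of the 4 subunit genes (y axis, from 0) in each of the 20 libraries by group (x axis), with the mean and SD as a black bar and the F11 libraries as triangles. Abcc9 and Abcc8 do not overlap at 24 weeks, where 8.19% of all tested genes were lower without overlap. At 2 weeks the F11 dnOGAh-Tg libraries lie near or inside the Control range.

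In Control at 2 weeks Abcc9 also moved with the level of long relative to short genes. Control 2 and 5, with the lowest Abcc9 of their group, had values of -0.22 and -0.50 on that measure, against 0.17 to 0.33 in the other 3 Controls. In dnOGAh-Tg the 2 F11 libraries, with low Oga, had 0.20 and -0.39, and the other 3 had -0.84 to -0.52. The measure and the level of Oga therefore cannot be told apart there. Among those 3, Abcc9 was 4142 at -0.52, 3562 at -0.76 and 4437 at -0.84. At 24 weeks the measure overlapped between the groups, though dnOGAh-Tg 1 (-0.31) and dnOGAh-Tg 2 (-0.60) lay below the lowest Control (-0.29). In dnOGAh-Tg, Abcc9 was 3063 at 0.26 and 2675 at -0.60. The part of this measure in the fall of Abcc9 was not tested. With a loess trend over exon length removed from each library, an alternative added after seeing the data, the change of Abcc9 was -1.96 (SE 0.14) at 24 weeks and -0.88 (SE 0.24) at 2 weeks.

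**Figure D2:**
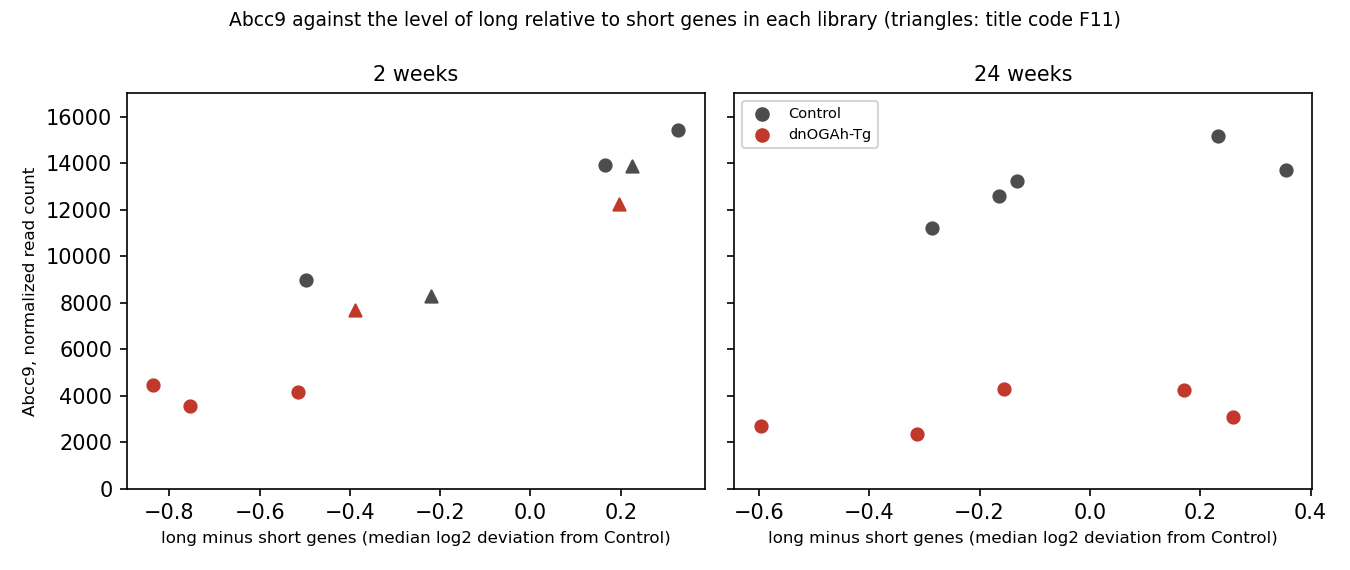
Abcc9 (y axis, normalized read count) against the median log2 deviation of the longest 20% of genes minus that of the shortest 20% (x axis) in each library at 2 and 24 weeks, with F11 libraries as triangles. At 2 weeks Abcc9 is lower at lower values of the x axis in Control, and within dnOGAh-Tg the F11 libraries, with low Oga, lie highest on both axes. Control 5 (8955) is above dnOGAh-Tg 4 (4142) at nearly the same place on the x axis. At 24 weeks the dnOGAh-Tg libraries lie between 2355 and 4283. The part of the x axis in the fall of Abcc9 was not tested.

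Abcc8 encodes SUR1, the receptor of the pancreatic beta cell and of mouse atrial muscle, and was the lowest of the 4 per length. At 24 weeks its normalized counts were 1471, 1446, 1422, 1378 and 1343 in Control and 923, 949, 887, 706 and 955 in dnOGAh-Tg. The groups did not overlap, and the Controls were tight (coefficient of variation 3.65%). The mean fell from 1412 ± 51.5 to 884 ± 103, 62.6% of Control (log2 change -0.68, SE 0.09, limma adjusted p = 0.00025). Of all genes tested at 24 weeks, 11.1% passed as lower and 8.19% were lower with groups that did not overlap.

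At 2 weeks Abcc8 was at 1660.3, 1665, 1915, 1708 and 1572 in Control and at 1512, 1463, 721, 798 and 604 in dnOGAh-Tg. Again no dnOGAh-Tg library reached the Control range, which held for 1.96% of all genes in that direction, but the F11 libraries lay just below it and the other 3 at 35.5% to 46.8% of the Control mean. The log2 change of -0.84 (SE 0.23) missed the threshold (limma adjusted p = 0.118), in a comparison where limma passed 0 of 14584 genes, edgeR 0 and DESeq2 850 (5.95% of those it tested), while 3551 had an unadjusted p under 0.05 (24.3%). DESeq2 called Abcc8 lower (-0.74, adjusted p = 0.0462), and so did limma without dnOGAh-Tg 1 (-1.01, adjusted p = 0.0153, with 11.9% of all genes then called lower), over a range of 5.6e-05 to 0.299 in its alternatives. Without both F11 dnOGAh-Tg libraries the change was -1.27 (adjusted p = 9.0e-05), with 17.9% of all genes then called lower, and without all F11 libraries it was -1.29 (adjusted p = 0.00101), with 11.7% called lower. Without only the F11 dnOGAh-Tg libraries and with the length trend removed it was -1.04 (adjusted p = 5.6e-05), with 15.7% called lower.

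Kcnj11 encodes Kir6.2, the pore of the muscle cell channel. At 24 weeks it was at 4173, 5606, 4243, 4707 and 5089 in Control and at 3182, 4176, 3860.4, 2548 and 3091 in dnOGAh-Tg. dnOGAh-Tg 2 lay just above the lowest Control, and the other 4 below all Controls. The mean fell from 4763 ± 600 to 3371 ± 648, 70.8% of Control (-0.51, SE 0.13, limma adjusted p = 0.0149). With Abcc8, Kcnj11 made up the 2 of 3 tested subunits that passed at 24 weeks, where 22.5% of all genes passed in either direction by limma, 22.2% by edgeR and 26.5% by DESeq2.

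At 2 weeks Kcnj11 was at 4842, 4596, 4387, 4194 and 4604 in Control and at 4238, 4449.5, 3682, 3578 and 3119 in dnOGAh-Tg. The 2 F11 dnOGAh-Tg libraries lay inside the Control range and the other 3 below it. The log2 change was -0.26 (SE 0.11, 95% interval -0.49 to -0.02, limma adjusted p = 0.177). Without the F11 dnOGAh-Tg libraries it was -0.39 (adjusted p = 0.0130), where 17.9% of all genes were called lower. That call lies within a range of 0.00407 to 0.348 over the alternatives.

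Kcnj8 encodes Kir6.1, the pore of the vascular channel. At 24 weeks it was at 1089, 1273, 962, 1306 and 1335 in Control and at 780.3, 1276, 932, 767 and 1224 in dnOGAh-Tg. The groups overlapped, with dnOGAh-Tg 2 and 5 well inside the Control range. The change of -0.28 (SE 0.16, 95% interval -0.62 to 0.06) did not pass (limma adjusted p = 0.222), and the interval covers a fall as large as that of Kcnj11.

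At 2 weeks Kcnj8 was at 860.1, 1450.5, 1122, 1232 and 1288 in Control and at 1053, 1324, 1086, 1127 and 1355 in dnOGAh-Tg. Every dnOGAh-Tg library lay inside the Control range, F11 or not. The change was 0.01 (SE 0.14, 95% interval -0.29 to 0.31, limma adjusted p = 0.968), a value close to 0 whose sign turned under several alternatives.

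**Figure D3:**
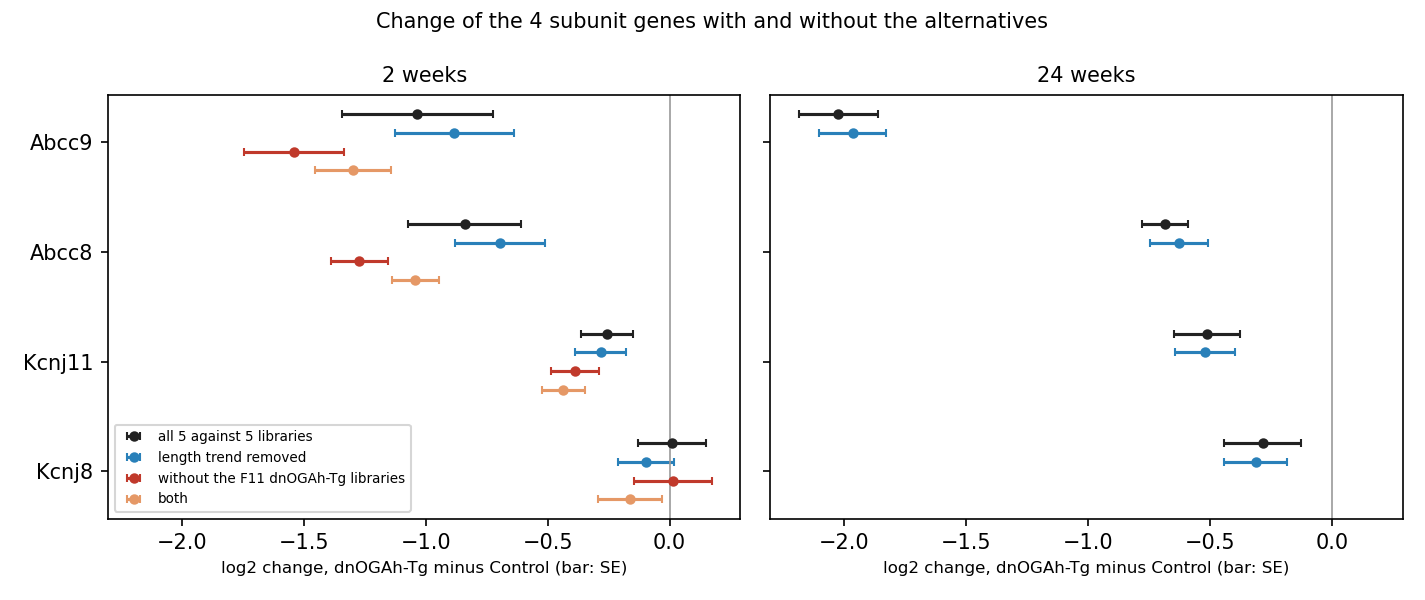
Log2 change of each subunit gene, dnOGAh-Tg minus Control (x axis, with SE), at 2 and 24 weeks, with all libraries, with the length trend removed, without the F11 dnOGAh-Tg libraries, and with both. Abcc9 is at -2.02 at 24 weeks with all libraries and -1.96 with the trend removed. Kcnj8 at 2 weeks is at 0.01 with all libraries and at -0.16 (SE 0.13) with both.

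The changes at 24 weeks minus those at 2 weeks were 0.16 for Abcc8 (SE 0.27, limma adjusted p = 0.830), -0.25 for Kcnj11 (SE 0.17, adjusted p = 0.523) and -0.29 for Kcnj8 (SE 0.22, adjusted p = 0.565). None of the 3 passed, where 1.76% of 14339 genes did. For Abcc9 the difference was -0.99 (SE 0.38), and it was -0.48 (SE 0.28) without the F11 dnOGAh-Tg libraries. Without those libraries Abcc8 passed in the other direction (0.59, adjusted p = 0.0391, over a range of 0.0391 to 0.996, where 2.18% of all genes passed), being lower at 2 weeks relative to its Control than at 24 weeks.

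The subunit genes were set beside Oga library by library, as a description. The F11 dnOGAh-Tg libraries, at 2.43 and 1.81 times the Control mean of Oga, had 101% and 63.4% of the Control mean of Abcc9, and 88.7% and 85.9% of that of Abcc8. The other 3, at 11.9 to 17.2 times, had 29.4% to 36.7% and 35.5% to 46.8%. At 24 weeks Oga spanned 6.90 to 17.9 times and Abcc9 17.9% to 32.5%, with the library of lowest Oga at 20.3% and that of highest Oga at 32.2%. The labels do not tell whether transgene reads are counted in Oga.

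**Figure D4:**
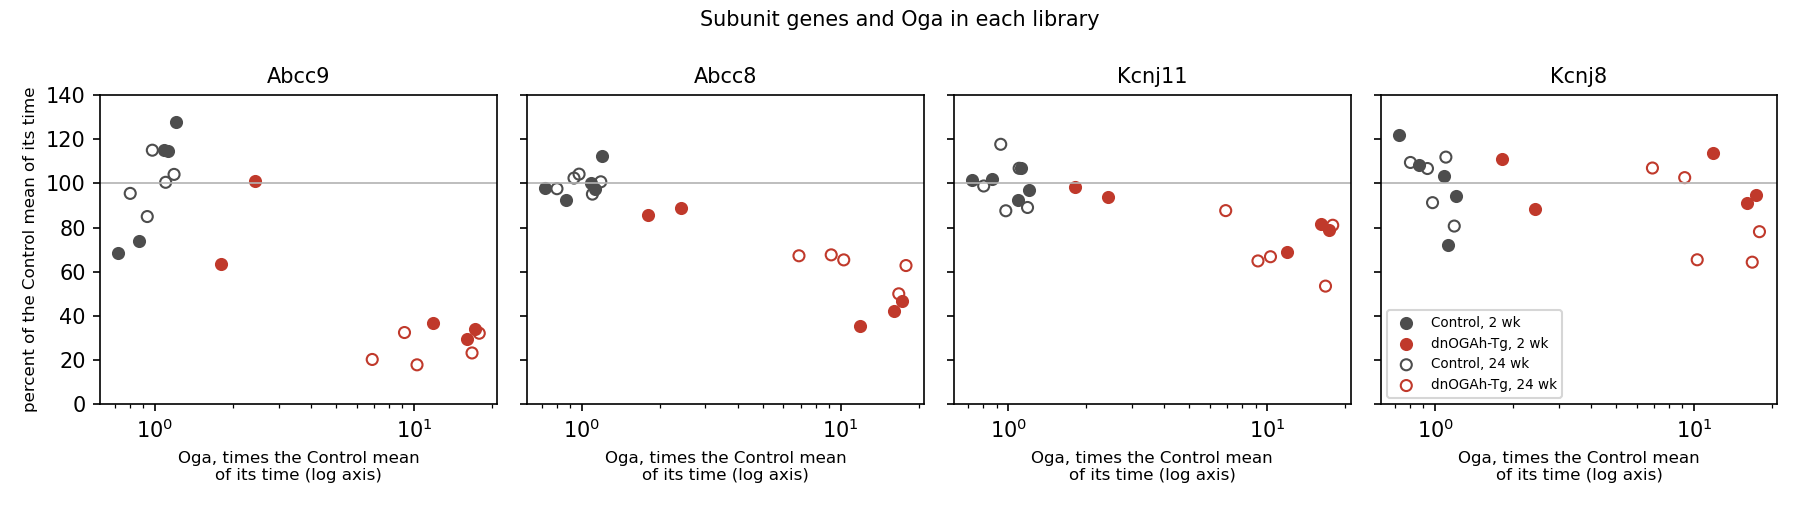
Each subunit gene as a percent of the Control mean of its time (y axis) against Oga as a multiple of the Control mean (log x axis) in the 20 libraries, filled at 2 weeks and open at 24 weeks. The 2 dnOGAh-Tg libraries at 1.81 and 2.43 times the Control mean of Oga sit close to the Controls for Abcc8, Kcnj11 and Kcnj8.

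The balance of receptor to pore within a library shifted with Abcc9 at 24 weeks, and the groups overlapped at 2 weeks. At 24 weeks there were 2.00 to 3.63 Abcc9 counts for each Kcnj11 count in Control and 0.641 to 1.39 in dnOGAh-Tg, with no overlap. Against its neighbour Kcnj8 the ratio was 8.80 to 14.3 in Control and 2.10 to 4.55 in dnOGAh-Tg, and against Abcc8 it was 7.75 to 10.3 and 2.55 to 4.78. The same ratios overlapped at 2 weeks. Against Kcnj11 the ratio was then 1.80 to 3.52 in Control and 0.967 to 2.89 in dnOGAh-Tg. Against Kcnj8 it was 5.71 to 16.1 and 3.27 to 11.6, and against Abcc8 4.98 to 8.36 and 4.94 to 8.09. These ratios carry the choice of Abcc9 and are not tested. The ratio of the pores, Kcnj8 to Kcnj11, differed by 0.23 on the log2 scale at 24 weeks (exact permutation p = 0.143, n = 5 per group) and by 0.27 at 2 weeks (exact permutation p = 0.246), both 0.246 after adjustment over the 2 times, two-sided, where the design can reach 0.00794.

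Cell type markers moved at 24 weeks, and in bulk tissue fewer cells of a type and less RNA per cell cannot be told apart. Of 10 ventricular muscle markers 4 fell (Myh6, Tnni3, Ryr2 and Pln), where 11.1% of all genes fell, and their summed level went from 1995730 to 2558030 in Control to 1433070 to 1929090 in dnOGAh-Tg. Per 1000 counts of that sum, Abcc9 was at 4.38 to 7.60 in Control and 1.39 to 2.88 in dnOGAh-Tg. These values did not overlap, but they carry the choice of Abcc9 and are not tested. Kcnj11 was at 1.97 to 2.19 and 1.62 to 2.22, and Abcc8 at 0.564 to 0.737 and 0.450 to 0.644, and both overlapped. The part of the markers in the falls of Kcnj11 and Abcc8 was not tested further.

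Markers of the vessel wall bear on Kcnj8 and on SUR2B. Of 11 pericyte markers 3 fell at 24 weeks (Rgs5, Notch3 and Rgs4) and 1 rose (Cspg4), beside 11.1% and 11.3% of all genes, and their sum was 26770.3 to 35166 in Control, with 19903 to 31238 in dnOGAh-Tg. Per 1000 counts of that sum, Kcnj8 overlapped (30.6 to 47.6 and 32.8 to 58.9). Abcc9 did not (358 to 452 and 118 to 161), but its values carry its choice and are not tested. Of 10 endothelial markers 7 fell (11.1% of all genes did), with sums of 44609 to 52545 and 31177 to 39947. Of 8 smooth muscle markers 1 passed, Des, a rise, and Des is also expressed in heart muscle cells; the other 7 summed to 9428 to 16388 in Control and 7416 to 14712 in dnOGAh-Tg.

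Markers of further cell types were checked beside Abcc8, whose SUR1 is the atrial receptor. Of 8 tested atrial markers 3 rose at 24 weeks (Sln, Nppa and Dkk3) and 1 fell (Kcna5), Nppa and Sln also being induced in stressed ventricle. Without those 2 the atrial list summed to 3001 to 4510.05 in Control and 3439 to 9887 in dnOGAh-Tg, the upper end being dnOGAh-Tg 4, which also had the lowest Abcc8 (706). Abcc8 was lower without that library as well (-0.60). Fibroblast markers had 3 rises of 10, macrophage markers 1 of 10, nerve markers 1 of 6 tested and lymphocyte markers 0 of 3 tested, where 11.3% of all genes rose, the 10 lymphocyte genes together not passing 185 counts in any library at 24 weeks. At 2 weeks limma passed no marker of any list, as it passed no gene at all. There 23 of 73 markers had an unadjusted p under 0.05, beside 24.3% of all genes.

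Among genes that work with the channel in muscle, some enzymes of energy transfer fell and others did not pass. The partner list holds ankyrin-B, caveolin-3, syntaxin-1A and enzymes that make or pass on ATP near the channel. At 24 weeks 3 of 12 fell and 0 rose, where 11.1% of all genes fell and 11.3% rose. The median log2 change was -0.23, beside -0.0046 over all genes. The count was 2 to 5 over the alternatives and is no result about the list. Ckm, the muscle creatine kinase, fell from 67379 ± 14915 to 32425 ± 8509 (-1.07, SE 0.19, limma adjusted p = 0.00134), and its mitochondrial counterpart Ckmt2 fell by 0.60 (SE 0.15, adjusted p = 0.0116). Pkm, the pyruvate kinase of muscle, fell by 0.30 (SE 0.10, adjusted p = 0.0445). Ank2, the ankyrin that holds Kir6.2 at the membrane, was at -0.51 (SE 0.18, adjusted p = 0.0571) and did not pass.

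The regulator list holds kinases and transcription factors that act on the channel or its genes. At 24 weeks 2 of 9 fell and 0 rose, with a median of -0.23, where 11.1% of all genes fell, so the count is no result about the list. Prkce, the protein kinase C isoform of preconditioning, fell by 0.43 (SE 0.09, limma adjusted p = 0.00295), and Prkaca, the catalytic subunit of protein kinase A, by 0.38 (SE 0.10, adjusted p = 0.0128). Prkaa2, the main catalytic subunit of AMP-activated kinase in muscle, was at -0.54 (adjusted p = 0.0504), and Foxo1, a forkhead factor, at -0.24 (adjusted p = 0.116).

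Other inward rectifiers went both ways at 24 weeks. Of 8 tested, out of 13 names in the list, 2 fell and 1 rose, beside 11.1% and 11.3% of all genes. The counts are no result about the list, whose median was -0.25. Kcnj2, which carries the resting current of ventricular muscle, fell from 1416 ± 314 to 768 ± 282 (-0.92, SE 0.23, limma adjusted p = 0.0127), and Kcnj3, a subunit of the acetylcholine-gated channel, fell by 0.61 (SE 0.18, adjusted p = 0.0275). Its partner subunit Kcnj5 was at -0.33 (adjusted p = 0.185). Kcnj14 (Kir2.4) rose from 105 ± 70.9 to 1166 ± 215 (3.65, SE 0.31, adjusted p = 9.0e-06), so that its 884 to 1487 counts stood beside the 767 to 1276 of Kcnj8 in the same libraries as counts, which are not per length and give no order of level.

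Among relatives of the receptors 1 gene passed. For the 5 tested Abcc genes, out of 9 names in the list, the median was -0.03 at 24 weeks. There 1 fell and 0 rose, beside 11.1% and 11.3% of all genes, so the count is no result about the list. The one was Abcc10, a drug efflux transporter, which went from 231 ± 22.7 to 140.4 ± 15.4 (-0.72, SE 0.12, limma adjusted p = 0.000916). Abcc5 (0.39, adjusted p = 0.0813), Abcc4 (-0.31, adjusted p = 0.138) and Abcc3 (0.34, adjusted p = 0.460) did not pass. At 2 weeks 0 members of the 4 lists passed by limma or edgeR, where 11 of 33 had an unadjusted p under 0.05 (24.3% of all genes did), and DESeq2 called 1 partner and 1 inward rectifier.

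**Figure D5:**
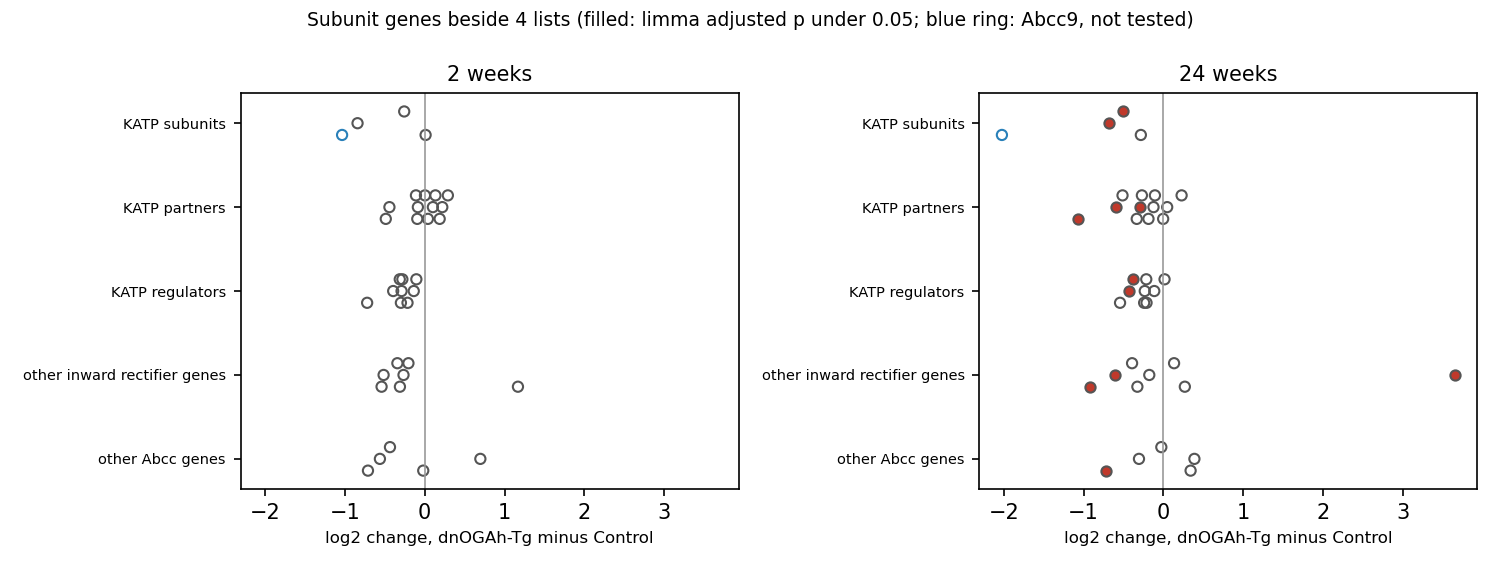
Log2 change of the subunit genes and of the tested genes of 4 lists (y axis), dnOGAh-Tg minus Control (x axis), at 2 and 24 weeks, filled where the limma adjusted p is under 0.05, with Abcc9 ringed in blue and not tested. Abcc9 at 24 weeks (-2.02) lies below, and Kcnj14 (3.65) above, the genes plotted with them.

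Genes within 500 kb of the subunit genes were examined as neighbours by position. Around Abcc9 and Kcnj8, 10 neighbours were tested at 24 weeks with a median of -0.01. Golt1b (0.30) and St8sia1 (2.78), a ganglioside synthase, rose, and Ldhb (-0.74), the lactate dehydrogenase subunit of heart, fell. Around Abcc8 and Kcnj11, 25 were tested with a median of 0.22. Fut2, Car11, Fam83e, Sult2b1, Kcnj14, Grwd1 and Sergef rose, and Rasip1, Grin2d, Tmem143 and Kcnc1 fell, Tmem143 by 1.12 (SE 0.10). Of all genes 11.3% rose and 11.1% fell. Kcnj14, the 1 inward rectifier gene that rose, therefore lies on the same stretch of chromosome 7 as Kcnj11.

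The genes most like each subunit over the libraries were sought among 11428 genes by the lower of the 2 Pearson correlations. Each was computed over the 10 libraries of 1 time, with Control and dnOGAh-Tg pooled. The correlations therefore hold the difference between the groups, along with differences in depth and length trend among libraries. Those with Abcc9 also carry its choice. For Abcc9 these were Plxnb1 (0.98 at both times), Pde4a, Peg13, Ago4 and Pitpnc1, with lower values from 0.97 to 0.98. Plxnb1, a semaphorin receptor, went from 1196 ± 132 to 223 ± 33.0 at 24 weeks and from 1423 ± 403 to 612 ± 404 at 2 weeks. For Abcc8 they included Rbfox1, Trap1, Acsf3 and Trpm4 (0.96 to 0.97). Rbfox1, a splicing factor of muscle and neurons, went from 1064 ± 166 to 191 ± 72.1 at 24 weeks.

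For Kcnj11 the most alike were Pfkm, the muscle phosphofructokinase (0.98 at both times), Cacna1s and Acad12. For Kcnj8 they were Ndufa4l2 (0.90 at 2 weeks and 0.97 at 24 weeks), Slc9a3r2 and Klk8. Ndufa4l2 belongs to the pericyte marker list, and it was at 596 ± 91.3 in Control and 491 ± 157 in dnOGAh-Tg at 24 weeks.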

How the data were processed

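Per the submitters' processing notes, reads were handled with STAR 2.7.3a on GRCm39, with cutadapt 2.6, Trim Galore 0.6.6, DESeq2 (no version) and R 4.0.3 also named. Read counter, annotation and strand are not given in sources used here, so antisense overlaps cannot be told apart. Per the labels' protocols, RNA came from a fibrous-tissue column kit. The authors deposited 1 table per time holding a normalized signal, read counts divided by 1 size factor per library. In every library 100% of values above 0 were whole multiples of 1 step (tolerance 0.01), which gave whole reads for count tests. In 2 libraries the step lay within 1% of 1.

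Each table was tested on its own, since the tables were normalized separately. Values were tested as log2(value + 1) by two-sided limma-trend tests (R 4.3.3, limma 3.58.1) in genes with at least 10 in at least 5 of 10 libraries (14584 genes at 2 weeks, 14676 at 24 weeks). P-values were adjusted by Benjamini-Hochberg over all tested genes, with a threshold of 0.05. Fold changes are on the log2(value + 1) scale. The difference between times came from 1 fit of the 4 groups over 14339 genes. Ratios of pores used an exact permutation test. edgeR 4.0.16 called 3253 and DESeq2 1.42.0 called 3889 genes at 24 weeks on recovered reads, beside 3296 by limma. The fit was also run on simulated counts. These held no length trend and no split of libraries by Oga, so the run does not show how the fit handles either. Exon and coding lengths came from GENCODE annotation of GRCm38, joined by gene identifier alone.

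The subunit genes, lists and alternatives were chosen with earlier results of these data known. Named are the subunits, the list members with the smallest p-values, called neighbours and the genes of most similar pattern, of which 1 is not reported here.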

Additional observations from a re-analysis of the deposited data

Results flagged for a closer look

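In dnOGAh-Tg at 24 weeks, Abcc8 in library 4 (706 normalized counts) stood apart from the other 4 (887 to 955). Its gap to the nearest library was 0.726 of the range of the group, above Dixon's 95% limit for 5 samples. Of 16 groups of subunit values examined it was the 1 that passed, and chance passes about 1 in 20. The same library had the lowest Kcnj11 (2548) and Kcnj8 (767) of its group. It is also the library with high atrial Myl4 (4528) and Myl7 (912). Without this library Abcc8 changed by -0.60 (limma adjusted p = 0.00027).

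The change of Kcnj14 at 24 weeks exceeded that at 2 weeks by 2.48 on the log2 scale (SE 0.48, limma adjusted p = 0.0127), 1 of 31 named genes whose difference between times was examined. It was at 85.5 ± 12.1 in Control and 215 ± 108 in dnOGAh-Tg at 2 weeks, and at 105 ± 70.9 and 1166 ± 215 at 24 weeks. The dnOGAh-Tg group at 2 weeks, which spanned 97.8 to 328, holds the 2 F11 libraries with low Oga. Named list genes were chosen in part by small p-values at 24 weeks, so they were picked on 1 side of this contrast. Of all genes, 1.76% passed it.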

How the results depend on the processing

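At 24 weeks 2 subunits, Abcc8 and Kcnj11, were called in each of the 21 alternatives, which called 2473 to 4109 genes. Abcc8 was at -0.71 to -0.60, Kcnj11 at -0.59 to -0.42 and Abcc9 at -2.12 to -1.91. The 2-week values depend on the F11 dnOGAh-Tg libraries. The count of called subunits, 0 with all libraries, was 2 without those libraries and 2 with the length trend also removed. It was 1 without all F11 libraries, 1 with DESeq2, and 0 to 1 with each library left out. In the first 2 of these settings 4879 of 14293 and 4411 of 14271 genes were called. Without all F11 libraries 3148 of 13879 were, with DESeq2 850 of 14289, and without dnOGAh-Tg 1 3360 of 14461. With all libraries limma called 0 genes, so the counts are no result about the subunits. With the length trend removed and all libraries kept, Abcc8 was at -0.70 (limma adjusted p = 0.0853). Kcnj8 at 2 weeks changed sign to -0.034 without all F11 libraries, -0.10 with the length trend removed and -0.16 with both the F11 dnOGAh-Tg libraries and the trend taken out, and ranged from -0.10 to 0.088 with each library left out. Abcc9 at 2 weeks ranged from -1.31 to -0.86 with each left out.

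For the difference between times, 1 subunit was called without the F11 dnOGAh-Tg libraries, where 2.18% of all genes were. Abcc9 moved to -0.48 there, or to -0.40 without all F11 libraries (-1.16 to -0.71 with each library left out). Abcc8 ranged from -0.00476 to 0.33 with each library left out, and was at 0.61 without all F11 libraries. The causes of these shifts were not tested.

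Called list members at 2 weeks, 0 with all libraries, ranged with each library left out from 0 to 3 (partners), 0 to 5 (regulators), 0 to 2 (inward rectifiers) and 0 to 4 (Abcc genes), the highest counts without dnOGAh-Tg 1, where 3360 of 14461 genes were called, and DESeq2 called 1 partner and 1 inward rectifier. At 24 weeks partners were 5 with quantile normalization and 5 with DESeq2 (2 to 3 with each left out), regulators 1 with quantile normalization (2 to 3), inward rectifiers 2 to 4 and Abcc genes 2 with DESeq2 (1 to 2). Replicate numbers were not taken to pair the libraries. At 24 weeks each same-numbered pair shares a title code, whose meaning the labels do not give, and deviations of same-numbered libraries correlated from -0.21 to 0.38 at 2 weeks and from -0.15 to 0.52 at 24 weeks. With the replicate number as a block, 241 genes were called at 2 weeks in place of 0, and 3921 in place of 3296 at 24 weeks, where the title code block is the same fit. With the title code as the block, 0 were called at 2 weeks, with Abcc8 at adjusted p = 0.142 and Abcc9 at -0.91. Under the replicate block Abcc8 was at adjusted p = 0.0004 and Kcnj11 at 0.00636 at 24 weeks, Kcnj8 at 0.105, Abcc8 at 2 weeks at 0.0631, and 2 Abcc genes were called at 24 weeks.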
